A study of Sus scrofa with 3 samples.

Results

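The growth hormone receptor and the insulin-like growth factor (IGF) axis of the liver were described by 10 genes, chosen by symbol: GHR, JAK2, STAT5B, SOCS2, BCL6, IGF1, IGFALS, IGFBP1, IGFBP2 and IGFBP3. All 10 were found among the 34579 features of the deposited tables, of which 22945 were mRNA. The tables hold RNA-Seq of liver from male Wuzhishan pigs, a Chinese miniature breed. The labels give an age of 6 to 7 months, which by the study's methods was the age when they were obtained, before acclimation and diet, so the pigs were older when the livers were taken. All pigs received a diet high in fat and cholesterol (HFC). IM pigs were intact, CM pigs were castrated, and CMT pigs were castrated and given testosterone, as weekly testosterone propionate according to the study's methods. The labels give 3 pigs in each pool, while the study's methods describe larger groups, so how many were pooled is not settled. Each group was sequenced as 1 library, so the spread between pigs was not measured and no p-value could be given. There was no group on a normal diet, so values are compared only among HFC-fed pigs.

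Growth hormone from the pituitary binds GHR on hepatocytes, which activates the kinase JAK2 and the transcription factor STAT5B. STAT5B induces IGF1, IGFALS and, as brakes on the same receptor, SOCS2 and CISH, and it represses BCL6, itself a repressor that shares many DNA sites with STAT5. Most circulating IGF1 is carried in a ternary complex with IGFBP3 and the acid-labile subunit, the product of IGFALS, while IGFBP1 and IGFBP2 form smaller complexes and IGFBP1 is held down by insulin. In rodents the temporal pattern of growth hormone, which differs between the sexes, sets many sex differences of the liver.

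Values are FPKM as deposited, which scale reads by the length of a gene and by a divisor for each library. The divisors were 2.51 (IM), 3.42 (CM) and 2.04 (CMT), all small for the recovered reads given below. Levels are therefore well above those of usual FPKM, with ALB at 690375 in IM. The minimum of 1 FPKM used here is likewise a lower bar than 1 usual FPKM. The divisors were also not proportional to the recovered reads, and that of CM was large for its reads beside the other libraries. Each log2 ratio of CM to IM is therefore 0.28 lower, and each of CMT to CM 0.24 higher, than on a scale of recovered reads per library. The number of reads behind a value could be recovered for 9 of the 10 genes, all but STAT5B, and over all features these reads came to 32197628 (IM), 36126730 (CM) and 25419901 (CMT). From them come the 95% exact intervals given here, Poisson for a level and binomial for a ratio of libraries. They cover counting error only, would be too narrow where read pairs were counted as 2 reads, and hold no variation between pigs. Recovered lengths, the shortest that fit, ran from 549 bases for IGFBP2 to 3419 for JAK2. Levels compared between genes rest on the lengths behind the deposited values, which can be multiples of these.

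Markers of hepatocytes dominated every library. The sum over the 9 of 10 hepatocyte markers in the tables was 1031330, 757091 and 798953 FPKM in IM, CM and CMT, and ALB alone made 7.97%, 6.57% and 5.18% of all FPKM. Sums were 3642, 2996 and 3392 for endothelial markers (7 of 8 in the tables), 12027, 11499 and 12648 for Kupffer cell or macrophage markers (7 of 8), 1642, 1714 and 1442 for stellate cell or fibroblast markers (9 of 9), and 38.5, 48.2 and 38.5 for B cell markers (5 of 5). The Kupffer sum hides MARCO, a scavenger receptor, at 414, 82.8 and 317 FPKM. MARCO, CD163 and the cholangiocyte genes are named after their values were seen. Cholangiocyte markers (6 of 6) summed to 906, 895 and 1242, mostly SPP1. Of the 5 that were mRNA features above the minimum, 3 were higher by 1.5-fold in CM than in IM (EPCAM, SOX9 and CFTR), beside 11.1% of all such features. The 5 had a median log2 ratio of 0.75 in CM versus IM and -0.58 in CMT versus CM. T or NK cell markers (8 of 8) summed to 544, 693 and 440.4, highest in CM. The largest difference among these lists was in erythroid markers (6 of 6), at 17301, 3424 and 5200.4, nearly all of it HBB. In pooled tissue, fewer cells of a type and less RNA per cell cannot be told apart.

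Within each library the genes spanned a wide range, led by the binding proteins. IGFBP1 and IGFBP2 were the most abundant and GHR the third in all 3 libraries, on the FPKM scale. In IM the order went on with IGFALS, SOCS2, IGFBP3, STAT5B, BCL6, IGF1 and JAK2. In CM and CMT, SOCS2 stood below IGFBP3 and IGF1 stood last, below JAK2. The intervals of IGF1 and JAK2 overlapped in both, at 27.1 to 38.8 and 31.9 to 38.8 FPKM in CM, and each held the other gene's level. These neighbours thus did not differ beyond counting error. The intervals of BCL6 and IGF1 in IM overlapped, at 64.9 to 78.7 and 50.7 to 69.2 FPKM, but neither held the other gene's level. Whether BCL6 and IGF1 differed beyond counting error was not tested.

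GHR, the receptor itself, had 935 FPKM in IM (4519 reads), 609.9 in CM (4015 reads) and 1007 in CMT (3956 reads). The CM library was thus the low one, and IM and CMT were close. The ratio of CM to IM was 0.652 (95% interval 0.625 to 0.681, log2 -0.62) and that of CMT to CM was 1.65 (1.58 to 1.73). CMT to IM was 1.08 (1.03 to 1.12). GHR lay just past the 1.5-fold line in CM versus IM, at 1.53-fold lower, and its log2 ratio no longer reached it under scaling by the upper quartile (-0.57), recovered reads (-0.34) or hepatocyte markers (-0.24). The log2 ratio of CMT to CM, 0.72, also lost 1.5-fold by recovered reads (0.49) and hepatocyte markers (0.38).

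The kinase and the transcription factor behind the receptor differed less. JAK2 had 32.9, 35.2 and 30.7 FPKM in IM, CM and CMT (282, 412 and 214 reads), and the intervals of all 3 of its ratios held 1, with CMT to CM at 0.871 (0.735 to 1.03). STAT5B had 126, 121 and 109 FPKM. Its near-identical paralog STAT5A, its neighbour on the chromosome in the RefSeq table of Sscrofa11.1, had 26.8, 31.0 and 23.3 FPKM, and how reads that match both were assigned is not given in the sources used here. Receptor RNA relative to kinase RNA therefore differed between libraries, with 28.5, 17.3 and 32.8 FPKM of GHR per FPKM of JAK2 in IM, CM and CMT. The related prolactin receptor PRLR was scarce, at 14.0, 18.1 and 8.35 FPKM, and was lower in CMT than in CM (ratio 0.462, 0.248 to 0.815).

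SOCS2, the feedback inhibitor that binds the activated receptor, differed most of the 10 genes. Its levels were 578 (IM), 129 (CM) and 214 FPKM (CMT) (3403, 1038 and 1024 reads). All 3 levels were far apart on the scale of counting error, with CMT between the others. CM was 4.47-fold lower than IM (4.17 to 4.79), CMT was 1.65-fold higher than CM (1.52 to 1.80), and CMT was 2.70-fold lower than IM (2.52 to 2.90). The difference between CMT and CM fell short of 1.5-fold by recovered reads (log2 0.49) and hepatocyte markers (0.39), while the others passed it under every scaling tried.

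CISH, another STAT5-induced inhibitor of the same family, was low in CM too, at 365, 78.3 and 275 FPKM (363, 106 and 222 reads), 4.67-fold lower in CM than in IM (3.75 to 5.85). The castrated library thus had about the same proportion of SOCS2 to CISH as the intact one, 1.65 against 1.58, a ratio of 1.04 (0.829 to 1.32). In CMT the proportion was 0.778, and it differed from CM by a factor of 0.471 (0.364 to 0.607). Ratios between genes such as these do not depend on how a library was scaled; the pairs were chosen after their values were seen. Erythroid markers moved with SOCS2, with HBB at 17158, 3399.7 and 5151 FPKM, ALAS2 at 77.5, 16.2 and 30.6 and HBM at 58.2, 7.47 and 12.5. Of the other erythroid markers SLC4A1 stayed under the minimum of 1 FPKM in every library, AHSP had 5.33, 0 and 3.28 FPKM, and GATA1 had 0.558, 0 and 2.06. MARCO, a Kupffer cell marker, was also lowest in CM, with a log2 ratio to IM of -2.32. The part of these markers in the SOCS2 and CISH results was not tested.

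The other family members did not share one pattern. SOCS1, a broad inhibitor of cytokine receptors, had 72.0, 38.3 and 29.99 FPKM and was 1.88-fold lower in CM than in IM (1.54 to 2.29) and 2.40-fold lower in CMT than in IM (1.87 to 3.11). SOCS3 had 78.3, 93.2 and 64.8 FPKM, under 1.5-fold in each comparison. PTPN1, a phosphatase that acts on JAK2 and the insulin receptor, had 105, 61.7 and 62.4 FPKM, so that CMT and CM did not differ beyond counting error (ratio 1.01, 0.846 to 1.21) and both were low against IM.

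BCL6, the repressor that growth hormone lowers through STAT5, was higher in both castrated libraries than in the intact one. It had 71.5 FPKM in IM (422 reads), 89.1 in CM (716 reads) and 85.3 in CMT (409 reads). CM to IM was 1.25 (1.10 to 1.41) and CMT to IM was 1.19 (1.04 to 1.37), while the interval of CMT to CM, 0.958 (0.846 to 1.08), held 1. BCL6 and SOCS2 were thus on opposite sides of IM in CM. BCL6 was under 1.5-fold on the deposited scale and past it by recovered reads (log2 0.60) and hepatocyte markers (0.69).

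IGF1, the hormone of the axis, was low in both castrated libraries. Its levels were 59.4, 32.6 and 29.1 FPKM in IM, CM and CMT, from 166, 124 and 66 reads, so that its counting error was the largest of the 9 genes with recovered reads. CM was 1.82-fold lower than IM (1.44 to 2.32) and CMT was 2.04-fold lower than IM (1.53 to 2.76). Between CMT and CM the ratio was 0.892 with an interval of 0.652 to 1.21, so a difference was not detectable at this depth. With hepatocyte-marker scaling IGF1 no longer reached 1.5-fold in CM versus IM. Erythroid markers were also highest in IM, and their part in the IGF1 result was not tested. In this IGF1 was unlike GHR and IGFALS, which were higher in CMT than in CM. IGF1 per IGFALS was 2.63-fold lower in CMT than in CM (1.92 to 3.61), and IGF1 per GHR was 1.85-fold lower (1.36 to 2.54).

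IGF2, the other ligand, was far above IGF1 on the FPKM scale in each library, at 1010.1, 717 and 824 FPKM, or 17.0, 22.02 and 28.3 FPKM per FPKM of IGF1. The size of this gap rests in part on the lengths behind the deposited values. The shortest that fit were 254 bases for IGF2 and 1113 for IGF1, and the lengths used can be multiples of these. IGF2 had 644, 623 and 427 reads, and IGF1 166, 124 and 66. IGF2 was 1.41-fold lower in CM than in IM (1.26 to 1.58). The IGF1 receptor IGF1R was scarce in these livers, with 11.4, 10.02 and 13.3 FPKM. The insulin receptor INSR had 114, 76.3 and 101 FPKM, at 1.49-fold lower in CM than in IM (1.34 to 1.66).

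The partners of the ternary complex were low in CM and close to IM in CMT. IGFALS, the acid-labile subunit, had 728 FPKM in IM (3654 reads), 344 in CM (2355 reads) and 807 in CMT (3293 reads). CM was 2.11-fold lower than IM (2.01 to 2.23), and CMT was 2.34-fold higher than CM (2.22 to 2.47), the largest difference of the 10 genes in that comparison. CMT to IM was 1.11 (1.06 to 1.16).

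IGFBP3, the binding protein of the complex, had 454.5, 305 and 447 FPKM (948, 868 and 758 reads). CM to IM was 0.672 (0.612 to 0.738), at 1.49-fold just short of 1.5-fold, and CMT to CM was 1.46 (1.33 to 1.62). CMT and IM did not differ beyond counting error, at 0.984 (0.893 to 1.08). IGFBP3 tracked GHR more closely than IGFALS, since IGFBP3 per GHR was 1.03 in CM relative to IM (0.930 to 1.14) and IGFBP3 per IGFALS was 1.42 (1.28 to 1.58). In rodent liver IGFBP3 comes largely from non-parenchymal cells. Endothelial markers had a median log2 ratio of -0.30 in CM versus IM and 0.10 in CMT versus CM, and Kupffer cell or macrophage markers had medians of -0.18 and 0.29. Among the latter CD163 had ratios of 0.696 and 1.52, but the 7 did not move as one. In CM versus IM 6 were lower and 1 was higher, and in CMT versus CM 4 were higher and 3 were lower. On the scale of recovered reads the medians became -0.02 and -0.14 for endothelial markers. For Kupffer cell or macrophage markers they became 0.10 and 0.05, and IGFBP3 had log2 ratios of -0.29 and 0.31. The part of these markers in the IGFBP3 result was not tested.

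IGFBP1, the insulin-repressed binding protein of hepatocytes, was the most abundant of the genes and was highest in IM. It had 17280.5 FPKM in IM (36304 reads), 8005 in CM (22916 reads) and 11328 in CMT (19342 reads). CM was 2.16-fold lower than IM (2.12 to 2.19), CMT was 1.42-fold higher than CM (1.39 to 1.44), and CMT was 1.53-fold lower than IM (1.499 to 1.55). The last of these fell short of 1.5-fold when libraries were scaled to recovered reads or to hepatocyte markers. IGFBP2, also secreted by hepatocytes, had 5253, 5055 and 5452 FPKM (7238, 9491 and 6106 reads), a ratio of 0.962 in CM versus IM and 1.08 in CMT versus CM. Both directions of IGFBP2 turned when libraries were scaled to recovered reads, to log2 values of 0.22 and -0.13.

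The makeup of the binding protein RNA differed accordingly. Over the 7 genes IGFBP1 to IGFBP7, IGFBP1 made 66.4%, 50.5% and 54.5% of the FPKM in IM, CM and CMT, and IGFBP2 made 20.2%, 31.9% and 26.2%. IGFBP3 made 1.75%, 1.93% and 2.15%. IGFBP4, at 2143, 1735 and 2837 FPKM, made 8.24%, 10.9% and 13.7%. IGFBP1 per IGFBP2 was 2.08-fold lower in CM than in IM (2.01 to 2.15). IGFBP1 and IGFBP3 are neighbours with no gene between them in the RefSeq table of Sscrofa11.1, and IGFBP1 per IGFBP3 was 1.45-fold lower in CM than in IM (1.32 to 1.59).

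Genes known from rodents to be repressed by insulin together with IGFBP1 were low in CM in part. Of 8 listed, 6 were above the minimum. In CM versus IM 3 were lower and 1 was higher by 1.5-fold or more, beside 12.1% and 11.1% of all mRNA features above it. PCK1, which catalyses a controlling step of gluconeogenesis, had 15266, 6514 and 11000 FPKM in IM, CM and CMT. TAT, which degrades tyrosine, had 10757.5, 4379.7 and 7074 FPKM, and PPARGC1A, a coactivator of gluconeogenic genes, had 152, 60.8 and 55.6. IGFBP1 and PCK1 stayed close to proportional, with IGFBP1 per PCK1 at 1.09 in CM relative to IM (1.06 to 1.11) and 0.838 in CMT relative to CM (0.819 to 0.857).

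The same list did not move as one in CMT. PDK4, which inhibits pyruvate dehydrogenase, had 1046, 905 and 216 FPKM, and TRIB3, a stress-induced pseudokinase, had 4.35, 12.4 and 1.89. FBP1, another gluconeogenic enzyme, had 5216, 4199.8 and 3278. In CMT versus CM, 2 of the 6 were higher (PCK1 and TAT) and 2 were lower (PDK4 and TRIB3), beside 12.1% and 13.5% of all mRNA features above the minimum. Scaled to recovered reads or to hepatocyte markers, 0 were higher and 3 were lower, beside 22.4% and 28.6% of all features lower. In CMT versus IM, 5 were lower, beside 10.1%, with a list median log2 ratio of -0.94.

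By counts, the 10 genes were all above the minimum of 1 FPKM in every library, which 15613 mRNA features passed. In CM versus IM, 5 of 10 were lower by 1.5-fold or more (GHR, IGF1, IGFALS, IGFBP1 and SOCS2), beside 12.1% of all these features, and 0 were higher, beside 11.1%. In CMT versus CM, 3 of 10 were higher (GHR, IGFALS and SOCS2), beside 12.1%, and 0 were lower, beside 13.5%. In CMT versus IM, 3 of 10 were lower (IGF1, IGFBP1 and SOCS2), beside 10.1%, and 0 were higher, beside 6.67%. All 10 genes also had at least 10 FPKM everywhere, and among the 12127 features of that abundance 9.97% were lower in CM versus IM, 10.9% were higher in CMT versus CM and 5.05% were lower in CMT versus IM. The comparisons share libraries and are not independent.

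**Figure D1:**
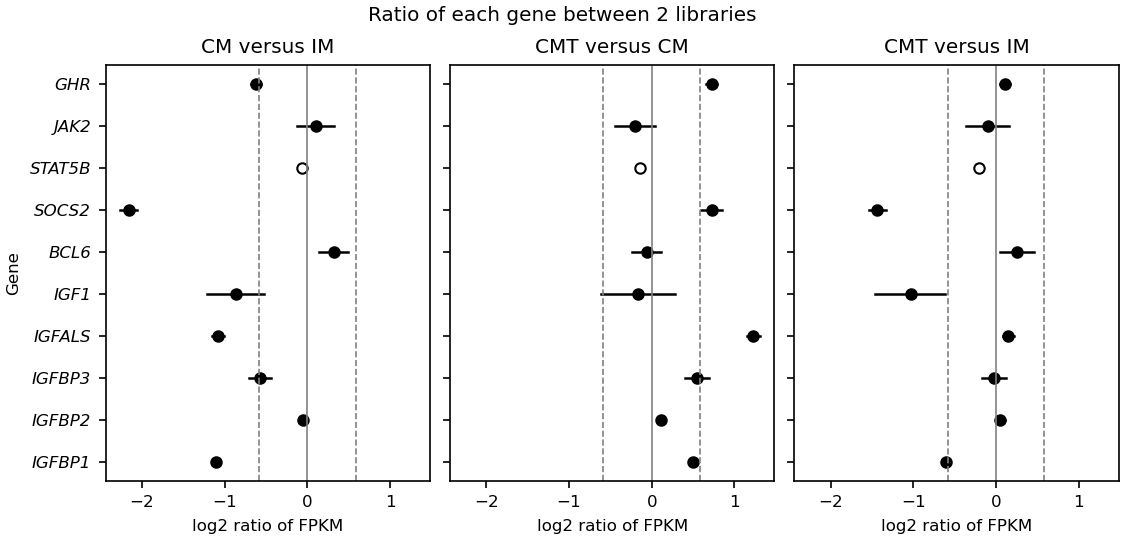
log2 ratio of FPKM between libraries for each gene in the 3 comparisons, with horizontal bars for 95% exact binomial intervals of counting error and dashed lines at 1.5-fold. STAT5B (open point) has no interval. SOCS2 is the farthest from 0 in CM versus IM, at -2.16, and IGFALS in CMT versus CM, at 1.23.

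The median log2 ratio of the 10 genes was -0.60 in CM versus IM, beside -0.02 over all mRNA features above the minimum. It was 0.30 in CMT versus CM, beside 0.01, and -0.06 in CMT versus IM, beside -0.01. The scale matters to the first pair of comparisons. Scaling to the recovered reads raised every log2 ratio of CM to IM by 0.28, so that 22% of all features were higher and 6.42% lower, and it changed CMT to CM by -0.24, with 6.82% higher and 22.4% lower. Scaling to hepatocyte markers moved them by 0.37 and -0.34. On the scale of recovered reads, 4 genes were still lower by 1.5-fold in CM versus IM (IGF1, IGFALS, IGFBP1 and SOCS2), BCL6 was higher, and in CMT versus CM IGFALS alone was higher. CMT versus IM moved by 0.04 or less under each scaling.

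**Figure D2:**
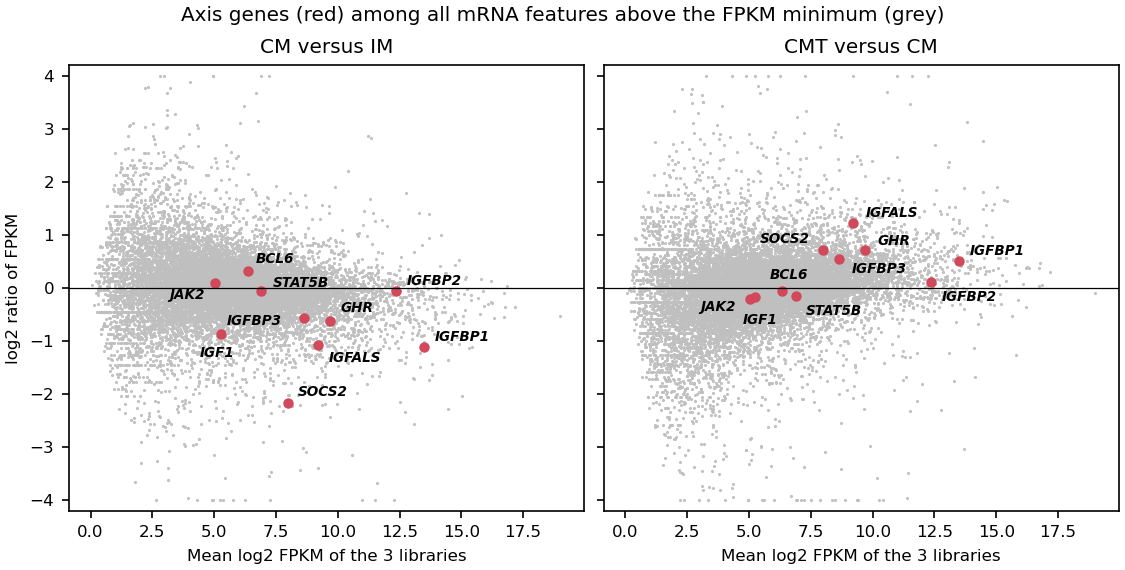
log2 ratio of FPKM against the mean log2 FPKM of the 3 libraries, for the 10 genes (red) and all 15613 mRNA features of at least 1 FPKM in each library (grey, drawn at the edge where beyond 4 in either direction). SOCS2, IGFBP1 and IGFALS lie at the lower side of the cloud in CM versus IM on the deposited scale, and IGFALS lies at the upper side in CMT versus CM.

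Of 12 other genes of the IGF system, 9 were above the minimum. In CM versus IM 2 were lower and 1 was higher, beside 12.1% and 11.1% of all mRNA features above the minimum. In CMT versus CM 2 were higher and 1 was lower, beside 12.1% and 13.5%. In CMT versus IM 0 passed 1.5-fold, beside 6.67% higher and 10.1% lower. With 9 genes these counts do not stand apart from those shares. IGFBP4 was 1.64-fold higher in CMT than in CM (1.54 to 1.73), a call lost by recovered reads or hepatocyte markers, under which 1 gene of the list was higher. IGFBP6 had 12.7, 6.24 and 8.89 FPKM. IGFBP5 was near the floor of detection at 5.66, 2.31 and 4.64 FPKM, with an interval that held 1, and PAPPA2, a protease that cleaves IGFBP3 and IGFBP5, was scarcer still at 1.57, 3.35 and 1.05 FPKM. The list had a median log2 ratio of -0.33 in CM versus IM, which became -0.05 on the scale of recovered reads.

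Of 21 other genes of growth hormone signalling, 19 were above the minimum, and GH1, the hormone itself, was listed at 0 in all 3 libraries. In CM versus IM 3 were lower (CISH, SOCS1 and PTPN1) by 1.5-fold or more, beside 12.1% of all mRNA features above the minimum. Another 1 was higher, beside 11.1%. By recovered reads 2 were lower and 3 were higher, beside 6.42% and 22% of all features. By hepatocyte markers 1 was lower and 5 were higher, beside 5.19% and 28.5%. In CMT versus CM 2 were higher (CISH and STAT3), beside 12.1%, and PRLR was lower. STAT3 barely passed 1.5-fold, and under each of the other scalings CISH alone was higher. STAT3 had 627, 478 and 723 FPKM. In CMT versus IM 3 were lower (SOCS1, PTPN1 and PRLR), beside 10.1%. The interval of PRLR in that comparison held 1 (ratio 0.597, 0.307 to 1.115). The median of the list was -0.16 in CM versus IM and turned to 0.12 on the scale of recovered reads.

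Liver genes known from rodents as growth hormone responsive or sex-biased included CUX2, with the largest ratio of any gene named here. Of 13 listed, 12 were above the minimum and ELOVL3 was listed at 0 in all 3 libraries. In CM versus IM 4 were lower and 0 were higher, beside 12.1% and 11.1% of all mRNA features above the minimum. By recovered reads 3 were lower and 1 was higher, beside 6.42% and 22% of all features. By hepatocyte markers 3 were lower and 2 were higher, beside 5.19% and 28.5%. The list median log2 ratio of -0.32 became -0.04 by recovered reads and 0.05 by hepatocyte markers. In CMT versus CM 3 were higher (CUX2, CISH and FOXA2) and 1 was lower (PRLR), beside 12.1% and 13.5%. By recovered reads 3 were higher and 2 were lower, beside 6.82% and 22.4%. By hepatocyte markers 2 were higher and 3 were lower, beside 5.51% and 28.6%. CUX2, a repressor that is female-biased in mouse liver, had 226, 30.2 and 282 FPKM in IM, CM and CMT. It was the lowest in CM relative to IM of all genes on this list, with a log2 ratio of -2.91, and the highest in CMT relative to CM, at 3.22, though no reads were recovered for it and it has no interval. FOXA2, a liver transcription factor, had 174, 54.6 and 102 FPKM, and CYP7B1, a male-biased hydroxylase in mouse liver, had 121, 73.5 and 110. In CMT versus IM 2 were lower (FOXA2 and PRLR), beside 10.1%, and 0 were higher, beside 6.67%. The interval of PRLR in that comparison held 1 (ratio 0.597, 0.307 to 1.115).

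**Figure D3:**
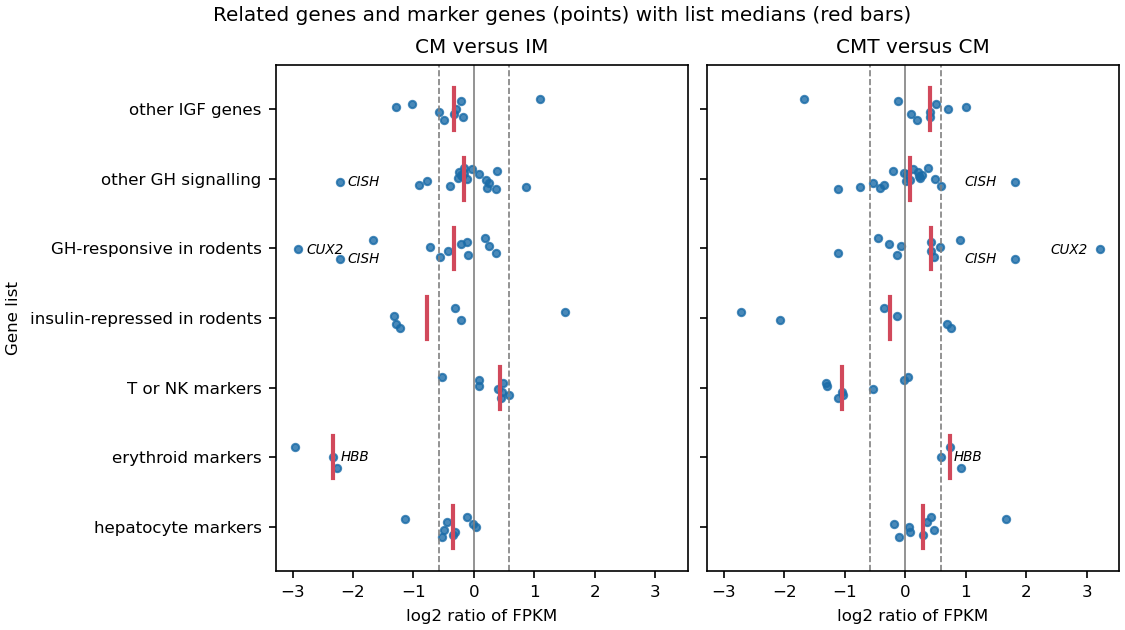
log2 ratio of FPKM in CM versus IM and CMT versus CM for each gene above the minimum (points) of 7 lists, with the list median (red bar) and dashed lines at 1.5-fold, on the deposited scale. CUX2 and CISH are far below 0 in CM versus IM and far above it in CMT versus CM, and the 3 erythroid markers above the minimum had a median of -2.34 in CM versus IM.

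The genes with a pattern most like a member were found among the 12127 mRNA features of at least 10 FPKM, by the distance between 2 log2 ratios, CM versus IM and CMT versus IM, from the 3 libraries. For GHR the nearest were HOGA1, LOC100514665, UAP1, ETHE1 and DCLRE1C, and 105 features (0.866%) lay within 0.1 of it. For IGFALS they were LOC100516938, POMGNT2, LOC100737089, LDHD and SEPW1, with 17 features (0.14%) within 0.1. For IGF1 they were ACSM5, LOC102168068, ADAMTS1, LOC100522074 and CSRNP1, with 9 features (0.0742%) within 0.1. The counting intervals of IGF1 are many times wider than this distance, so its nearest genes and their number lie within its counting error. Fewer features lie near any pattern far from 0, so these counts do not rank the patterns.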

How the data were processed

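Liver RNA from each group was pooled and sequenced on an Illumina HiSeq as 1 library. The submitters' processing notes name FastQC and TopHat, and the study's methods state mapping to Sscrofa 10.2; the counting program and the annotation are not given in the sources used here. The authors deposited 1 table of FPKM values per library.

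Reads were recovered from the FPKM steps (divisors 2.51, 3.42 and 2.04 for IM, CM and CMT, not proportional to the recovered reads), with lengths tried up to 10000 bases, for 23090 of the 24277 features above 0 (95.1%). The shortest fitting length was taken, so a common factor of the reads can be lost, which makes an interval too wide. On simulated data reads were exact for 92.3% of 7914 genes, and 96.1% of the intervals for CM versus IM held the simulated ratio.

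Comparisons were ratios of FPKM with no pseudocount, called at 1.5-fold with at least 1 FPKM in all 3 libraries. Alternatives were a minimum of 10 FPKM or none, 2-fold, an interval without 1, a pseudocount of 1, and 4 scalings. An interval on fewer reads was added after seeing the data.

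The members and lists were chosen with earlier results of these data known. Named were all members, the list genes past 1.5-fold (up to 6 a list), list genes of the same role as a member, and the 5 nearest genes for GHR, IGF1 and IGFALS. Of 120 listed symbols, 109 were matched directly, 5 through the RefSeq table of Sscrofa11.1 and 6 were not analysed here. Some results that the naming rule covers are not reported here. Python 3.11.15, numpy 2.4.6, pandas 2.3.3, scipy 1.17.1 and matplotlib 3.10.9 were used.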

Additional observations from a re-analysis of the deposited data

How the results depend on the processing

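With 1 pooled library a group, no library could be left out and variation between pigs was not measured. No paired analysis was possible because each group had 1 library. The count of members past the threshold was 5 in CM versus IM, 3 in CMT versus CM and 3 in CMT versus IM. It was the same under a pseudocount of 1, median-ratio scaling, and intervals that left out 1 on all or on 0.5 of the reads. Neither other FPKM minimum could change it, because all 10 genes had at least 10 FPKM in every library. At 2-fold it was 3, 1 and 2. Scaled to recovered reads or to hepatocyte markers, it was 1 in CMT versus CM and 2 in CMT versus IM, and in CM versus IM 5 and 4, each including BCL6 as higher. Upper-quartile scaling gave 4 in CM versus IM, without GHR. The median log2 ratio in CM versus IM was -0.32 by recovered reads and -0.22 by hepatocyte markers. In CMT versus CM it was 0.23 by upper quartile, 0.0666 by recovered reads and -0.0355 by hepatocyte markers; the added shift of all ratios is the cause. Of 55 alternative values of the 11 member ratios past 1.5-fold, 45 stayed past it. All 55 kept their sign, but they had to. A pseudocount cannot turn a ratio, and each scaling moved the ratios by less than 1.5-fold. Of 95 alternative values of the other ratios, 8 took the other sign and 2 passed 1.5-fold (BCL6). The 8 were of IGFBP2 in CM versus IM and in CMT versus CM, STAT5B in CM versus IM, and IGFBP3 in CMT versus IM. Depth limited IGF1 most.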
